A study of Mus musculus with 10 samples.

Results

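Bone marrow cells that carried a mutant ASXL2 were compared with cells that carried the full-length protein, with the 3 mutants pooled into 1 class. The comparison used 8 of the 10 libraries of the study: all 6 mutant libraries (Mutant1, Mutant2 and Mutant3, 2 each) against the 2 libraries of full-length ASXL2. The other 2 libraries, from cells with the empty vector (EV), entered the same fit and gave each changed gene its level without added ASXL2. All cells were mouse bone marrow cells without lineage markers and with the receptor Kit, grown with IL3, IL6 and SCF, sorted for the GFP of the vector and expanded before polyA RNA was sequenced. The constructs were over-expressed on top of the cells' own Asxl2, and the labels do not say at which residue each mutant differs from the full-length protein. Nothing in the labels ties the 2 libraries of a group to separate cultures or animals. The p-values therefore reflect only how far these libraries differ from each other, and part or all of that spread may be technical.

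ASXL2 is 1 of 3 mammalian relatives of the fly gene Additional sex combs. ASXL proteins bind the enzyme BAP1, which takes ubiquitin off histone H2A and so acts against Polycomb repressive complex 1. ASXL2 is mutated in acute myeloid leukaemia with the translocation t(8;21), which joins RUNX1 to RUNX1T1, and the mutations there mostly shorten the protein. Culture of marrow progenitors with IL3 and SCF favours cells of the mast cell lineage.

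Total estimated counts ran from 52422686 to 79320702 per library, and 17810 genes passed the filter on low counts. Mast cell and basophil transcripts were abundant in every library, with a summed level over 27 listed genes of 67380 to 75879 TPM (the deposited length-corrected share of all transcripts) in the mutants, 67813 and 81996 with full-length ASXL2, and 75260 and 77044 with the empty vector. The names of the deposited tables place 5 libraries, 1 EV, 1 full-length and 3 mutant, in each of 2 batches, and the first principal component (41.2% of the variance) split all 10 libraries that way. For 4 of the 6 mutant libraries the table's name gives another mutant or replicate than the label, and for 2 of them another batch. The pooled class does not depend on which mutant a library holds, and no value is given here for a single mutant. On the third component (8.72%) full-length replicate 2 lay at -45.62 and the other 9 libraries between -11.77 and 28.2, so each result below rests in part on a library that stands apart.

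Asxl2 itself checked that a construct was expressed. Its level, in CPM (gene counts scaled to the library total and by TMM, used for every level below unless TPM is named), was 107 and 111 with the empty vector, 1384 and 992 with full-length ASXL2, and 790 at the lowest, 1031 at the median and 1892 at the highest of the 6 mutant libraries. All 8 libraries with a construct stood far above both EV libraries, and the mutant and full-length ranges overlapped. The fitted difference between mutants and full-length ASXL2 was -0.01 on the log2 scale (SE 0.23, adjusted p = 0.994). Reads of a construct and of the cells' own gene are counted together, so this level is their sum. CPM is not corrected for length, so a shorter construct would give fewer reads per molecule. Nor does the level show which form of ASXL2 a library carries. Asxl1, the closest relative, differed by -0.09 (SE 0.04, adjusted p = 0.470), with 101 and 104 CPM in the full-length libraries and 91.9 to 99.0 in the mutants. Bap1, the catalytic partner, differed by 0.05 (SE 0.05, adjusted p = 0.766). Asxl3 had next to no counts in any library and was not tested.

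Between the mutants and full-length ASXL2, 71 genes were called (edgeR's quasi-likelihood test with batch as a block, Benjamini-Hochberg adjusted p under 0.05), which is 0.399% of the genes tested. Of these, 33 (0.185%) were higher and 38 (0.213%) lower in the mutants. The rises were the larger changes. Leaving aside Ston1, which had 0 counts in both full-length libraries and gets no fold, the 32 other genes that were higher had a median difference of 1.22 on the log2 scale, and 20 of them were at least 2-fold higher. Among the 38 that were lower the median size was 0.60 and 11 were at least 2-fold lower. The called genes had all 6 mutant libraries on one side of the full-length library of their batch in 71 of 71 cases. That holds for 21.1% of all genes tested, and the calls were chosen on these same libraries, so nothing is read from it. In 47 of the 71 the mutant and full-length ranges did not overlap at all, against 5.69% of all genes tested, and nothing is read from that count either. An unadjusted p under 0.05 was reached by 2003 genes, the called ones included.

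The number of calls rests on full-length replicate 2. Without it only 2 genes were called, neither of them among the 71, and 1 library then stood for full-length ASXL2, assumed to vary like the other groups. Other libraries moved the calls too. Most of the genes called without full-length replicate 1 were not among the 71, and that fit also left 1 full-length library. The count rose without either EV library. It was 41 without Mutant1 replicate 1, 24 and 46 without Mutant2 replicate 1 or 2, and 28 without Mutant3 replicate 2. The fitted differences moved less than the calls: all 71 kept their direction and an unadjusted p under 0.05 without either full-length library, with a median size of 0.935 times the reported one without replicate 2 and 1.07 times without replicate 1. Those are the libraries on which the genes were chosen, so this is a description and not a repeat.

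**Figure D1:**
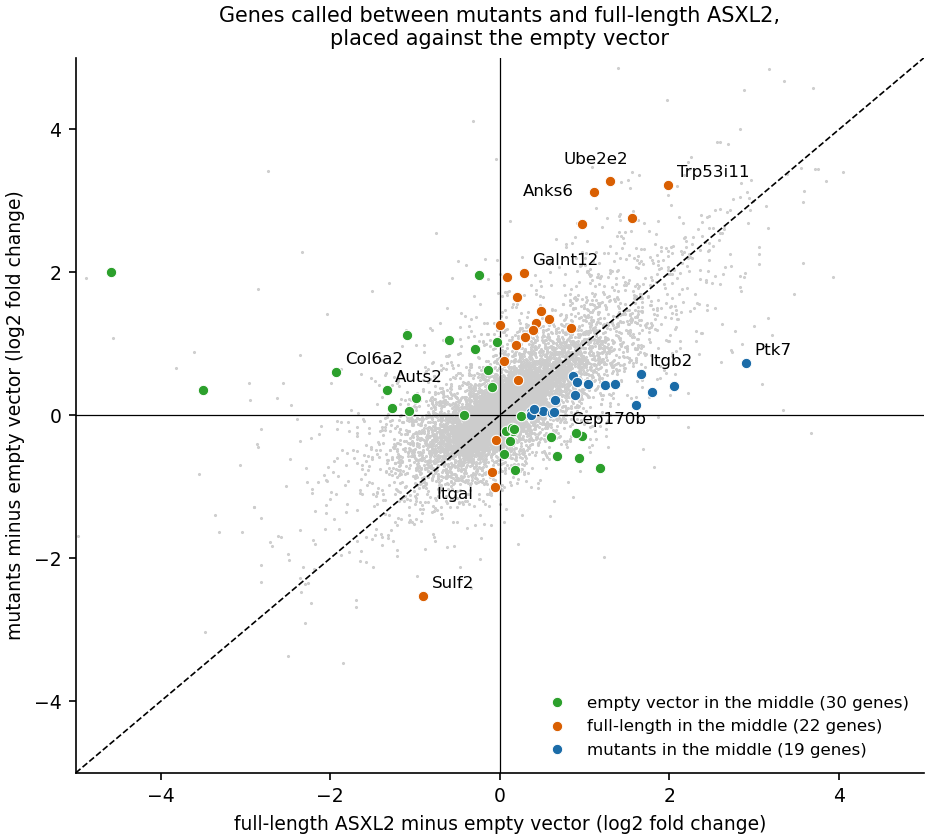
Fitted log2 fold change of full-length ASXL2 against the empty vector (x axis) and of the mutants against the empty vector (y axis) for every gene tested (grey, those outside the axes not drawn), with the 71 called genes coloured by which class has the middle level; the dashed line marks equal change. Called genes above the line were higher in the mutants: 18 had full-length ASXL2 and 15 the empty vector in the middle, and of those below it 19 had the mutants in the middle.

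Setting each called gene beside its EV level gave 3 orders. The empty vector lay between the other 2 classes for 30 genes (42.3%, against 21.7% of all genes tested), full-length ASXL2 lay in the middle for 22 (31.0%, against 37.4%), and the mutants lay in the middle for 19 (26.8%, against 40.9%). The genes were chosen by the gap between 2 of the 3 levels, which bears on the order, so these shares are a description without a test. The direction of change divided the orders. Of the 33 genes higher in the mutants, 18 had full-length ASXL2 in the middle, 15 the empty vector and 0 the mutants, whereas of the 38 lower genes 19 had the mutants in the middle, 15 the empty vector and 4 full-length ASXL2. Against the empty vector itself, 5.07% of all genes were called with full-length ASXL2 (686 higher, 3.85%, and 217 lower, 1.22%) and 10.8% with the mutants (1214 higher, 6.82%, and 711 lower, 3.99%). These 2 contrasts share their libraries with the main comparison and with each other. The first sets 2 libraries and the second 6 against the 2 EV libraries. Their power to call a gene is therefore unequal, and the 2 counts do not show which class changed more genes. Without EV replicate 1 the second count fell from 1925 to 494 genes and the first from 903 to 384. Without full-length replicate 2 the first was 285.

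Genes that rose with full-length ASXL2 and stood higher still with the mutants formed the first set. Trp53i11, which encodes a protein induced by p53, had 0.433 and 0.730 CPM with the empty vector, 1.75 and 2.89 with full-length ASXL2, and 3.71, 5.34 and 7.41 at the lowest, median and highest mutant. The 3 classes did not overlap. The mutants exceeded full-length ASXL2 by 1.23 (SE 0.16, adjusted p = 0.0095), and full-length ASXL2 exceeded the empty vector by 1.99 (adjusted p = 0.00066). A list of 24 tested p53 targets, which does not hold Trp53i11, leaned the other way between mutants and full-length ASXL2. Its median was -0.115, with 20 of the 24 below 0, and no member was called. Ube2e2, a ubiquitin-conjugating enzyme, stood higher by a wider margin at low levels: 0.904 and 0.452 CPM with the empty vector, 2.70 and 0.790 with full-length ASXL2, and 4.69 to 8.71 with a median of 6.39 in the mutants. Its difference between mutants and full-length ASXL2 was 1.99 (SE 0.25, adjusted p = 0.0095), being 1.53 without full-length replicate 2, and full-length ASXL2 stood 1.29 above the empty vector (adjusted p = 0.038). Rasgef1a encodes an exchange factor for Ras-family GTPases. It was the single called member of 20 tested Ras and Rap regulators (0.185% of all genes were called higher). Rasgef1a had 1.58 and 0.992 CPM with the empty vector, 5.77 and 2.21 with full-length ASXL2, and 5.05, 9.08 and 12.1 in the mutants. Batch 1 full-length and the lowest mutant overlapped here, yet within each batch all mutants were above the full-length library. The fitted rise was 1.21 (SE 0.21, adjusted p = 0.044). B3galnt1, which makes the glycolipid globoside, followed the same order at low levels, with 0.656 and 1.32 CPM in the full-length libraries and 1.94 to 4.68 in the mutants (difference 1.71, SE 0.19, adjusted p = 0.0082).

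A second set was not called between full-length ASXL2 and the empty vector and was higher with the mutants. Galnt12 starts the O-linked sugar chains of mucin-type glycoproteins by adding N-acetylgalactosamine. Its level was 2.81 and 2.45 CPM with the empty vector, 3.68 and 2.76 with full-length ASXL2, and 8.02, 10.2 and 13.3 in the lowest, median and highest mutant. The EV and full-length libraries overlapped and all 6 mutants were above them, 3.26-fold above full-length ASXL2 (log2 1.70, SE 0.18, adjusted p = 0.0082). Against the empty vector the mutants stood 1.99 higher (adjusted p = 0.00016) and full-length ASXL2 0.29 (adjusted p = 0.504). Galnt12 (chromosome 4, 47091909 to 47123070, plus strand, mm10) has a called neighbour: Anks6, an ankyrin repeat protein of the primary cilium, lies 34482 bases away on the minus strand (47015669 to 47057427). Anks6 had 0.546 and 0.584 CPM with the empty vector, 1.16 and 1.27 with full-length ASXL2, and 2.85 to 6.16 with a median of 5.26 in the mutants. Its difference from full-length ASXL2 was 2.01 (SE 0.23, adjusted p = 0.0082), and the mutant and full-length ranges did not overlap. Unlike for Galnt12, both full-length libraries also stood above both EV libraries. Only 2 other pairs of called genes lay within 200000 bases: Slc6a4 with Cpd, and Rbms3 with Gm17396, whose spans overlap on opposite strands. Whether exons of Rbms3 and Gm17396 overlap was not tested. If they do, counting without strand might not tell them apart.

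**Figure D2:**
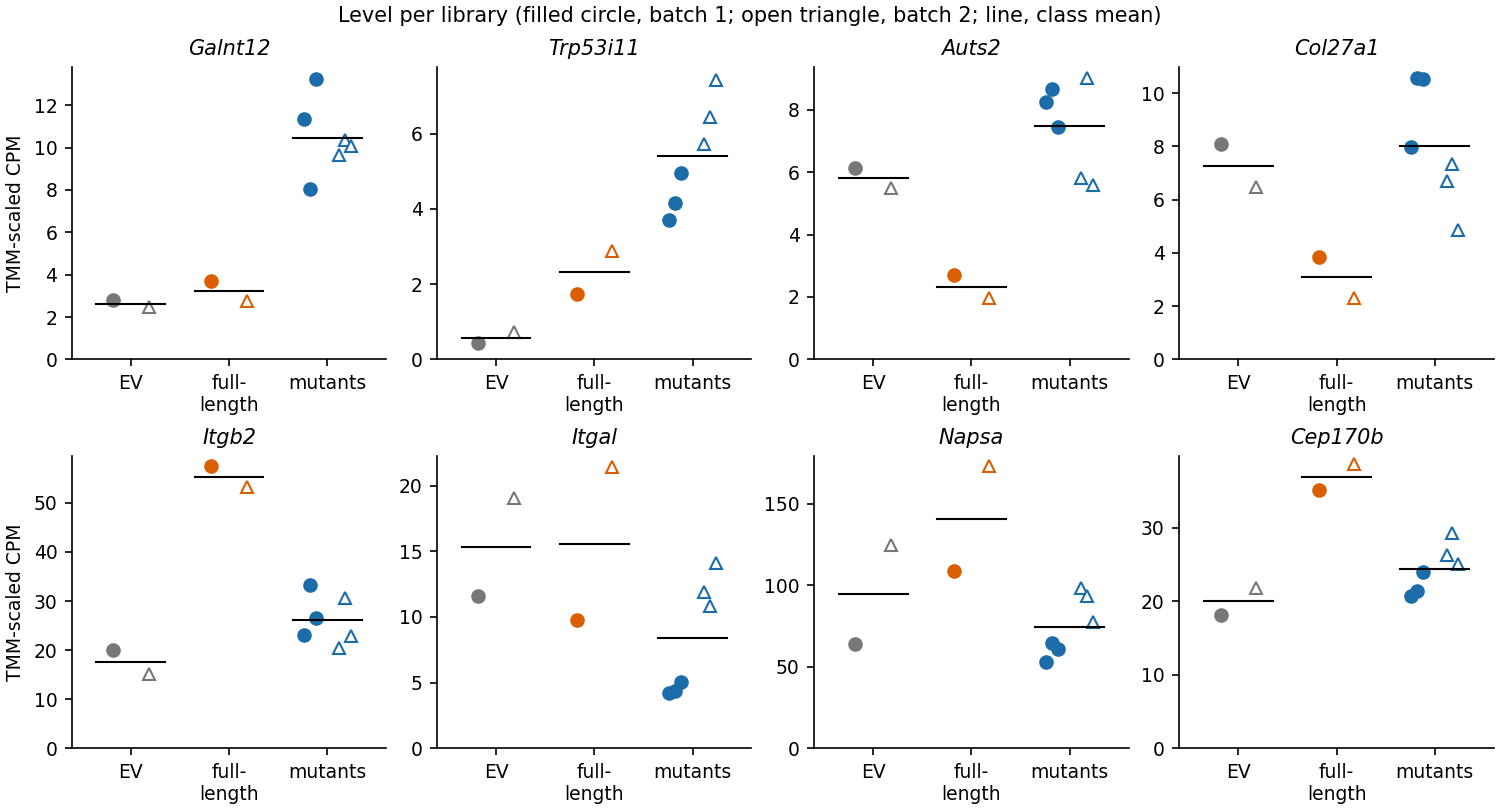
TMM-scaled CPM in every library for 8 genes, by class (EV, empty vector), with filled circles for batch 1, open triangles for batch 2 and lines at class means. Galnt12 and Trp53i11 were highest with the mutants, Auts2 and Col27a1 lowest with full-length ASXL2, Itgb2 and Cep170b highest with full-length ASXL2, and Itgal and Napsa lower in the mutants within each batch.

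Other members of that second set ran from membrane proteins to growth regulators. Emp2, a tetraspan membrane protein, had 4.30 and 5.74 CPM with full-length ASXL2, 2.90 and 5.84 with the empty vector, and 11.7, 13.9 and 15.1 in the mutants, a difference of 1.46 (SE 0.22, adjusted p = 0.039). Spock2, the secreted proteoglycan testican-2, had 0.954 and 1.32 CPM with full-length ASXL2, 1.04 and 1.08 with the empty vector, and 3.33 to 5.05 in the mutants (1.85, SE 0.21, adjusted p = 0.0082). Bmyc, a small relative of Myc, rose from 4.54 and 3.86 CPM to between 7.70 and 9.49 (0.99, SE 0.12, adjusted p = 0.0088). In each of these 3 genes every mutant library was above both full-length libraries. The same separation held for Actr3b, a paralog of an ARP2/3 subunit that seeds branched actin (1.21, SE 0.19), Sh3bgrl2 (1.05, SE 0.16) and Dmd, the cytoskeletal linker dystrophin (0.79, SE 0.09). It held too for Ccnjl, a cyclin-like gene at low level that was 0.578 and 0.224 CPM with full-length ASXL2 and 1.20 to 2.78 in the mutants (2.21, SE 0.26, adjusted p = 0.0082). Fzd6, a Wnt receptor, Crim1, a membrane protein that binds bone morphogenetic proteins, and B3gnt7, which extends sulphated sugar chains, were higher within each batch while their ranges over both batches overlapped. Their differences were 0.80 (SE 0.14, adjusted p = 0.043), 0.86 (SE 0.12, adjusted p = 0.012) and 0.79 (SE 0.12, adjusted p = 0.021).

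In the third set full-length ASXL2 stood below the empty vector and the mutants were close to it. Auts2, a subunit of variant Polycomb repressive complex 1 that is known to activate transcription, had 6.12 and 5.50 CPM with the empty vector, 2.69 and 1.95 with full-length ASXL2, and 5.58, 7.86 and 9.0 in the mutants. Both full-length libraries were below all others, and the mutants overlapped the empty vector. Full-length ASXL2 was lower than the empty vector by 1.33 (log2 -1.33, adjusted p = 0.0060), the mutants differed from the empty vector by 0.36 (adjusted p = 0.229), and the difference between mutants and full-length ASXL2 was 1.69 (SE 0.19, adjusted p = 0.0082). Col27a1, a fibrillar collagen chain, went the same way, with 8.08 and 6.48 CPM with the empty vector, 3.86 and 2.32 with full-length ASXL2, and 4.87 to 10.6 in the mutants. It differed by 1.38 between mutants and full-length ASXL2 (SE 0.18, adjusted p = 0.012) and by -1.27 between full-length ASXL2 and the empty vector (adjusted p = 0.0064). Cobll1, a cordon-bleu relative that binds actin, had 7.12 and 8.41 CPM with the empty vector, 3.40 and 4.43 with full-length ASXL2, and 7.51, 9.15 and 11.2 in the mutants. The mutants stood 1.24 above full-length ASXL2 (SE 0.18, adjusted p = 0.021), and all of them were above both full-length libraries. Col6a2, a collagen VI chain, was the single called member of 20 tested matrix and protease genes (0.185% of all genes were called higher). It was barely expressed: 0.176 and 0.268 CPM with full-length ASXL2, 0.734 and 0.949 with the empty vector, and 0.761 to 1.68 in the mutants (2.53, SE 0.34, adjusted p = 0.012). Plcb1, a phospholipase C of G protein signalling, showed the pattern at a smaller size, with 37.4 and 35.8 CPM with full-length ASXL2 against 43.2 and 55.1 with the empty vector and 44.6 to 53.1 in the mutants (0.42, SE 0.07, adjusted p = 0.041).

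The mirror image, highest with full-length ASXL2 and with the mutants between it and the empty vector, held the leukocyte integrin chain Itgb2. Itgb2 encodes the common beta chain (CD18) of leukocyte integrins, and Itgal encodes CD11a, the alpha chain that pairs with it to form LFA-1, the receptor for ICAM adhesion molecules. Itgb2 had 20.1 and 15.1 CPM with the empty vector, 57.5 and 53.2 with full-length ASXL2, and 20.3, 24.8 and 33.3 in the mutants. Both full-length libraries were above all others, 2.12-fold above the mutants (mutants minus full-length -1.08, SE 0.16, adjusted p = 0.043), and full-length ASXL2 was 1.66 above the empty vector (adjusted p = 0.0049). The mutants differed from the empty vector by 0.58 (adjusted p = 0.085). Itgal was placed differently: 11.6 and 19.0 CPM with the empty vector, 9.74 and 21.4 with full-length ASXL2, and 4.17, 7.94 and 14.1 in the mutants. Batch 2 was higher than batch 1 in every class, and within each batch all 3 mutants lay below both the EV and the full-length library. The mutants were lower than full-length ASXL2 by 0.94 (log2 -0.94, SE 0.15, adjusted p = 0.036) and differed from the empty vector by -1.0 (adjusted p = 0.0032), while full-length ASXL2 differed from it by -0.06 (adjusted p = 0.919). These 2 were the called members of 17 tested integrin chains (0.399% of all genes were called), whose median difference was -0.05 beside 0.01 over all genes.

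Other genes of that mirror image had varied roles. Cep170b, a centrosomal and microtubule protein, had 18.2 and 21.8 CPM with the empty vector, 35.1 and 38.8 with full-length ASXL2, and 20.7, 24.5 and 29.3 in the mutants. It fell by 0.60 from full-length ASXL2 to the mutants (log2 -0.60, SE 0.07, adjusted p = 0.0082) with no overlap. Soga1, named as a suppressor of glucose acting through autophagy, had 6.73 and 7.59 CPM with full-length ASXL2, 3.03 and 1.75 with the empty vector, and 1.99 to 3.16 in the mutants (-1.47, SE 0.19, adjusted p = 0.010). Clcn3, a chloride-proton exchanger of endosomes, had 34.1 and 32.2 CPM with full-length ASXL2 and 20.4 to 22.9 in the mutants, the tightest of these groups (-0.59, SE 0.09, adjusted p = 0.020). Map4k1, the haematopoietic progenitor kinase that dampens antigen receptor signalling, had 16.1 and 17.5 CPM with full-length ASXL2 and 7.59 to 11.4 in the mutants (-0.82, SE 0.13, adjusted p = 0.030). A4galt, the synthase of the glycolipid Gb3, was lower by a smaller step, from 70.9 and 87.8 CPM to between 48.4 and 68.5 (-0.45, SE 0.06, adjusted p = 0.015). At least 1 EV library lay inside the mutant range for Cep170b, Soga1, Map4k1 and A4galt, and the EV libraries lay on either side of it for Clcn3. Extl3, a glycosyltransferase of heparan sulphate assembly, differed by -0.44 between mutants and full-length ASXL2 (SE 0.07, adjusted p = 0.035), and Gltp, a carrier of glycolipids between membranes, by -0.42 (SE 0.06, adjusted p = 0.016). For 6 of the 19 genes of this order the mutants were themselves called above the empty vector: Adam15, a membrane metalloprotease, by 0.55 (adjusted p = 0.00023), Ptprs, a receptor tyrosine phosphatase, by 0.47 (adjusted p = 0.0042), Extl3 by 0.47 (adjusted p = 0.0038), Wdfy2 by 0.44 (adjusted p = 0.035), Cep170b by 0.29 (adjusted p = 0.037) and Gltp by 0.22 (adjusted p = 0.045).

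For 3 named genes of this order the 2 full-length libraries were far apart. Dnah2, an axonemal dynein heavy chain, had 4.51 and 8.85 CPM with full-length ASXL2 and 1.77 to 3.41 in the mutants, and its difference of -1.47 (SE 0.24, adjusted p = 0.040) was -0.97 without full-length replicate 2. Endod1, which holds an endonuclease domain, had 30.5 and 57.8 CPM with full-length ASXL2, 23.8 and 32.0 with the empty vector, and 22.9, 28.9 and 34.7 in the mutants. Its difference of -0.58 (SE 0.08, adjusted p = 0.017) was -0.35 without that library. Ptk7, a kinase-dead receptor of planar cell polarity signalling, was at 0.590 and 4.22 CPM in the full-length libraries and 0.104 to 1.44 in the mutants. Those ranges overlapped, and its fitted difference of -2.17 (SE 0.29, adjusted p = 0.012) joins batches at very different levels. Wdfy2, an endosomal adaptor, differed by -0.60 (SE 0.11, adjusted p = 0.046).

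**Figure D3:**
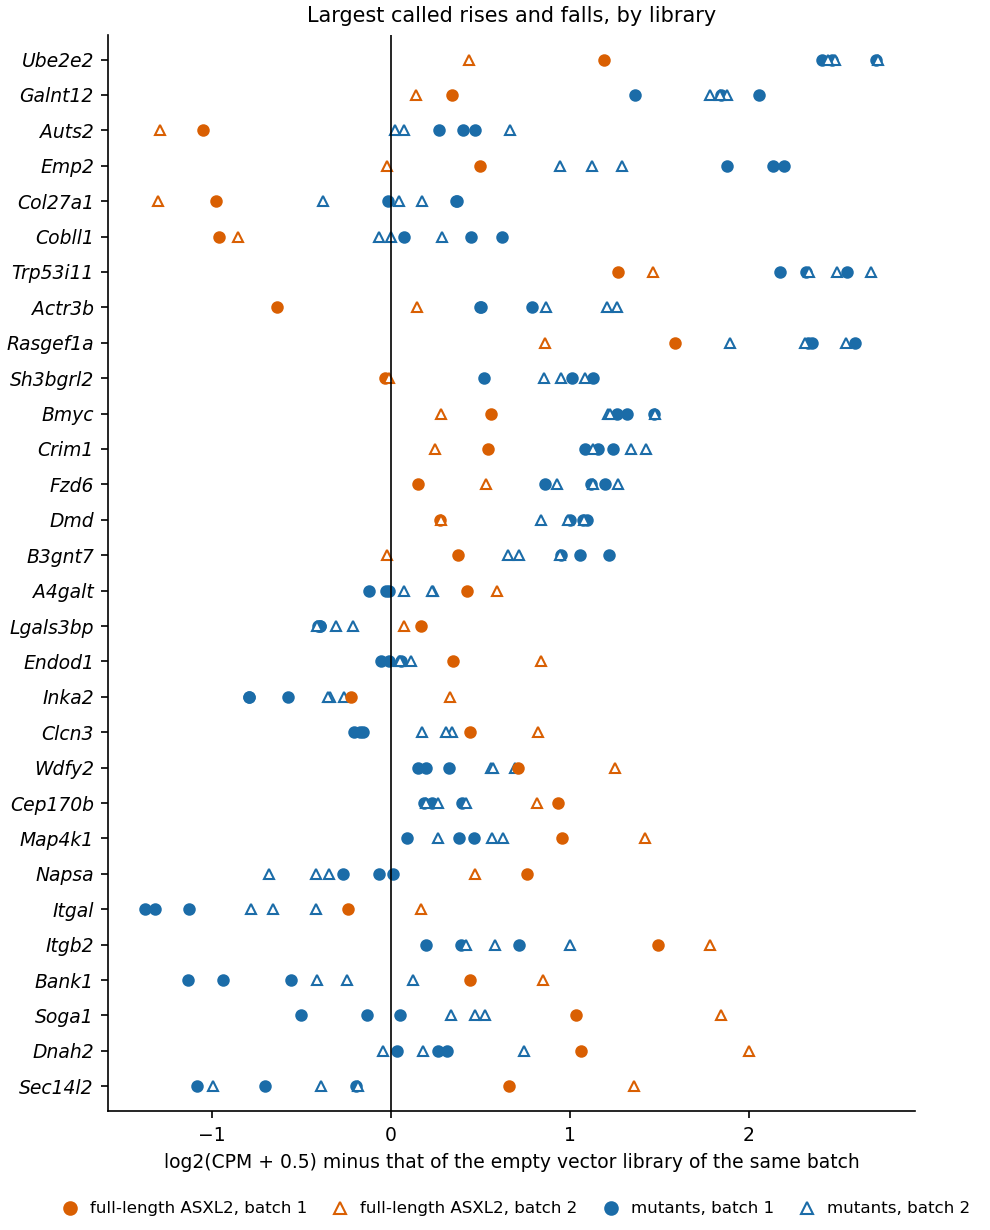
The 15 largest called rises and 15 largest called falls among genes at 5 CPM or more, each library drawn as log2(CPM + 0.5) minus that of the empty vector library of its batch, so that 0 is the EV level; circles are batch 1 and triangles batch 2. Mutant libraries sit to the right of full-length ASXL2 in the upper 15 genes and to its left in the lower 15 within each batch, and the EV level lies between the fitted class levels for 10 of the 30 genes, among them Auts2, Bank1 and Napsa.

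Some genes were below the empty vector with the mutants and above it with full-length ASXL2 by estimate. Napsa encodes napsin A, an aspartic protease of lysosomes. It had 63.9 and 125 CPM with the empty vector, 108 and 173 with full-length ASXL2, and 52.9, 70.8 and 98.1 in the mutants. Batch 2 was higher in every class, and no mutant reached a full-length library (-0.91, SE 0.11, adjusted p = 0.011). Napsa was the single called member of 19 tested genes of lysosomal proteases (0.213% of all genes were called lower), whose median was -0.09. Bank1, a scaffold of B cell receptor signalling, had 8.93 and 13.3 CPM with full-length ASXL2, 6.44 and 7.15 with the empty vector, and 2.65, 4.72 and 7.84 in the mutants (-1.24, SE 0.21, adjusted p = 0.043). Sec14l2, a lipid-binding protein of the Sec14 family, had 2.81 and 7.78 CPM with full-length ASXL2, 1.60 and 2.73 with the empty vector, and 0.490 to 2.34 in the mutants (-1.91, SE 0.32, adjusted p = 0.043). For Bank1 and Sec14l2 neither contrast with the empty vector passed, with adjusted p from 0.134 to 0.224. Lgals3bp, a secreted glycoprotein that binds galectins, had 98.4 and 120 CPM with full-length ASXL2, 87.5 and 114 with the empty vector, and 65.9, 76.1 and 98.6 in the mutants (-0.48, SE 0.06, adjusted p = 0.0082). Inka2, an inhibitor of the kinase PAK4, had 21.9 and 28.0 CPM with full-length ASXL2 and 14.6 to 18.4 in the mutants (-0.59, SE 0.10, adjusted p = 0.037). Gla, the lysosomal alpha-galactosidase that breaks down Gb3, differed by -0.38 (SE 0.06, adjusted p = 0.021). Sulf2, which removes sulphate from heparan chains, was one of the 4 lower genes with full-length ASXL2 in the middle: it had 2.62 and 5.91 CPM with the empty vector, 1.12 and 3.99 with full-length ASXL2, and 0.269 to 1.69 in the mutants (-1.63, SE 0.24, adjusted p = 0.020). Anks6, Gla, Sulf2, Extl3, Gltp, Adam15, Ptprs and Plcb1 lie outside the naming rule and were picked after their values were seen.

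Of 24 tested interferon response genes, 2 were called and both were lower with the mutants, where 0.213% of all genes were called lower. The lists were chosen with results of these data known, so the count is a description. Tap1, which pumps peptides to MHC class I molecules, had 75.0 and 85.2 CPM with the empty vector, 90.5 and 118 with full-length ASXL2, and 72.3, 82.6 and 97.9 in the mutants (-0.32, SE 0.05, adjusted p = 0.033). Bst2, or tetherin, which holds budding virus particles at the membrane, had 45.8 and 60.3 CPM with the empty vector, 45.2 and 67.3 with full-length ASXL2, and 36.4, 45.8 and 54.7 in the mutants (-0.29, SE 0.05, adjusted p = 0.034). In both genes the ranges overlapped over the batches and every mutant was below the full-length library of its own batch. The list's median was -0.08, with 17 of the 24 below 0, at -0.02 within batch 1 and -0.14 within batch 2.

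Upstream sequence was at hand from RefSeq (GRCm38.p6) for 56 of the 71 called genes, with more than one window where the table lists several entries for a gene. Interferon-regulated genes are known for repeats of a core bound by interferon regulatory factors, AANNGAAA. Of the called interferon response genes, Bst2 has its window printed because matches to this core were found in it. The 250 bases before its start, chr8:71537473-71537722 on the minus strand, read 5′ to 3′ with matches to that core on either strand in capitals:
Bst2: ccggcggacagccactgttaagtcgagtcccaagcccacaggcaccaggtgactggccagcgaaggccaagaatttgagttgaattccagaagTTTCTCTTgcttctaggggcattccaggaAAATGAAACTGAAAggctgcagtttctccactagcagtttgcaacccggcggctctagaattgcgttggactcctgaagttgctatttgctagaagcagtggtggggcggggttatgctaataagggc
The capitals are 3 matches: TTTCTCTT on the other strand, and AAATGAAA and AACTGAAA, which overlap, from 128 to 115 bases before the start. This core was in 21.3% of all such windows, in 16.5% of those of tested genes and in 16 of the 68 windows of called genes (23.5%). Among the tested interferon list it was in 12 of 27 windows, and the window of Tap1 held none. The RUNX core TGTGGT, searched because t(8;21) involves RUNX1, was in 7 of the 68 windows (10.3%), against 14% of all windows and 11.5% of those of tested genes. The GATA core AGATAA, bound by mast cell GATA factors, was in 4 of 68 (5.88%), against 9.99% and 6.57%. A match describes letters in a short window and shows no binding.

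Across 33 gene lists, 7 of 626 tested members were called (1.12%, against 0.399% of all genes tested), in 5 lists: Rasgef1a and Col6a2 higher, and Tap1, Bst2, Itgb2, Itgal and Napsa lower. Lists and members were chosen with earlier results of these data known, so nothing is read from that share. None of the 12 tested genes of the ASXL and BAP1 complexes or of 30 Polycomb genes was called by edgeR. Nor was any of 22 enzymes of H3K4 and H3K27 methylation or of 10 Hox and Meis genes. In these lists in turn, 2, 3, 1 and 0 genes had an unadjusted p under 0.05, beside 2003 of all 17810 genes tested. The smallest p among Polycomb genes was that of Pcgf5, a variant complex subunit, at 0.37 (adjusted p = 0.124). The lists' medians were -0.01, -0.02, -0.04 and -0.02.

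Genes of glycolysis and hypoxia had the highest median of the 33 lists, and no member was called. It was 0.33, with 27 of 30 above 0. Of the 30, 9 had an unadjusted p under 0.05, beside 2003 of all 17810 genes tested. Ankrd37, a HIF target, was at 1.39 (adjusted p = 0.228), Eno1, a glycolytic enolase, at 0.50 (adjusted p = 0.324) and Vegfa, the vascular growth factor, at 0.60 (adjusted p = 0.401). The batches differed here: the median was 0.04 within batch 1 and 0.66 within batch 2. The list's summed level was 6561 TPM in full-length replicate 2, 10221 in full-length replicate 1 and 7446 to 11741 in the mutants. EV replicates 1 and 2 had 9163 and 6214 TPM. Without full-length replicate 2 the median was 0.07. Against the empty vector, 8 of the 30 were called higher with the mutants (6.82% of all genes), at a median of 0.61. With full-length ASXL2, which had 2 libraries against 6, it was 1 of 30 (3.85% of all genes), at a median of 0.28.

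Proliferation genes leaned slightly the other way. All 30 mitosis genes and 29 of 30 S phase genes were below 0 in mutants against full-length ASXL2, at medians of -0.10 and -0.09. None was called, and 0 and 1 of these genes had an unadjusted p under 0.05, beside 2003 of all 17810 genes tested. Their summed level varied by library, without the same order of batches in each class. Mitosis genes reached 1124 TPM in batch 1 and 1708 in batch 2 with full-length ASXL2. With the empty vector they reached 1618 and 1394, and in the mutants 1003 to 1530. Ribosome biogenesis genes had a median of 0.01 and none called, although both classes stood below the empty vector by nearly the same amount, at -0.29 each. Of the 30, 12 were called lower with full-length ASXL2 (1.22% of all genes) and 23 with the mutants (3.99% of all genes). Those counts come from 2 full-length and 6 mutant libraries, so they are not compared with each other.

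**Figure D4:**
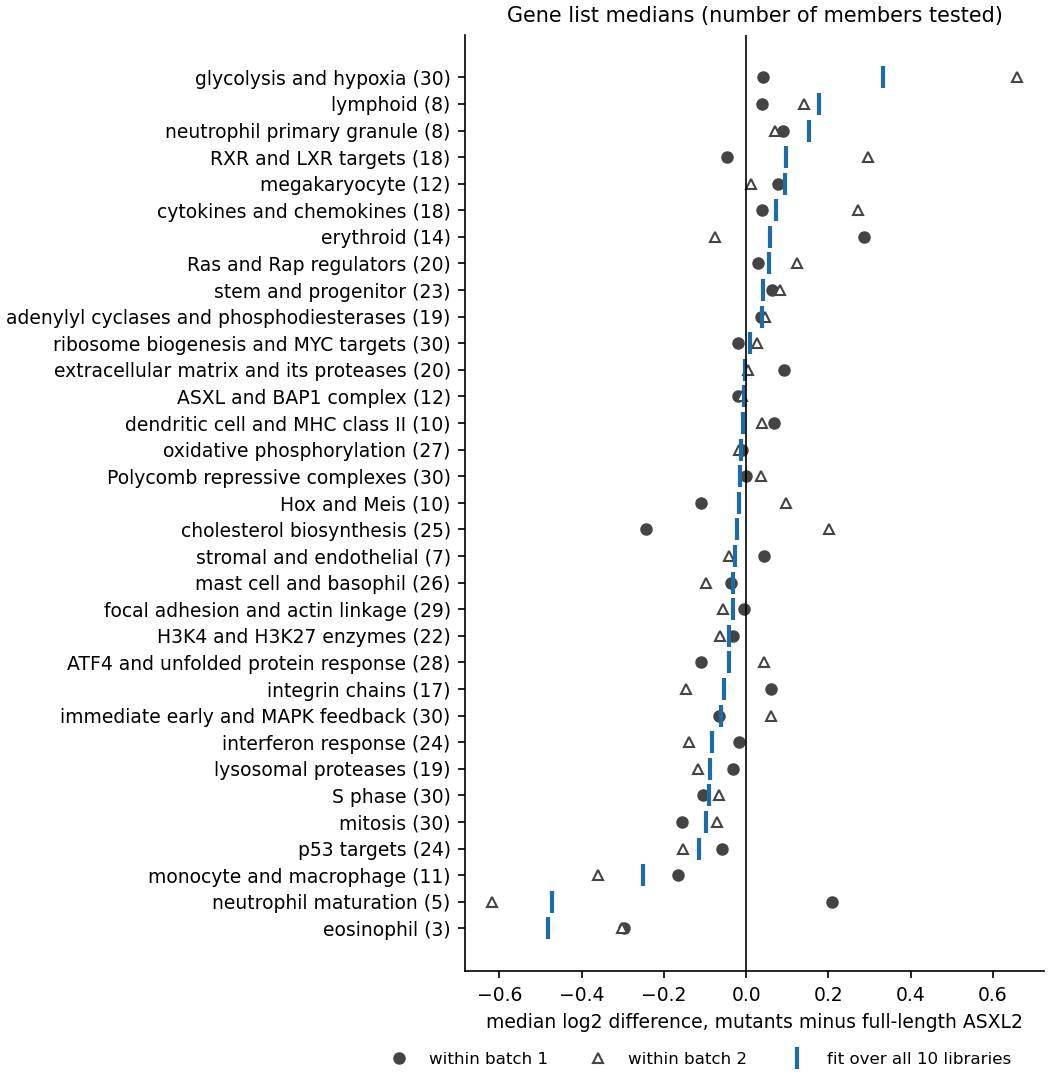
Median log2 difference between mutants and full-length ASXL2 for each gene list (number of members tested in brackets), from the fit over all 10 libraries (bars) and within batch 1 (circles) and batch 2 (triangles). Most medians lie near 0, and the glycolysis and hypoxia list stands at 0.33 with 0.04 in batch 1 and 0.66 in batch 2.

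Lists of markers of other blood cells differed widely in level. The lymphoid list summed to 3360 to 4866 TPM in the mutants and 3268 and 3921 with full-length ASXL2, nearly all of it Gzmb, the protease granzyme B (3358 to 4861 TPM in the mutants), and 15 of its 18 genes were under 1 TPM in every library. Megakaryocyte markers summed to 1481 to 2460 TPM in the mutants and 1961 and 1781 with full-length ASXL2, most of it Itga2b, the alpha chain of the platelet fibrinogen receptor. Neutrophil primary granule markers summed to 1453 to 1887 TPM and to 1446 and 1976, mainly Serpinb1a, an inhibitor of neutrophil proteases, and Calr, a chaperone. Erythroid markers summed to 296 to 380.1 TPM and to 309 and 348. Of 20 monocyte and macrophage markers, 11 were under 1 TPM in every library, among them Csf1r, the macrophage growth factor receptor, and Irf8. The 11 that could be tested were all lower with the mutants, at a median of -0.25, and none was called. Their summed level was 91.7 to 129 TPM in the mutants, 181 and 146 with full-length ASXL2, and 123 and 109 with the empty vector, mostly from Apoe, Cx3cr1 and F13a1. This sum was highest in the class where Itgb2 was highest, but its members did not move together. Apoe had 7.74 to 10.6 TPM with the empty vector and 36.1 to 88.8 with full-length ASXL2, and F13a1 was likewise higher. Cx3cr1 went the other way, from 59.3 to 78.6 TPM with the empty vector to between 21.1 and 41.7. Ccr2, Cd68 and Ctss were also lower with full-length ASXL2 than with the empty vector. The part of these markers in the Itgb2 result was not tested. In bulk RNA fewer cells of a type and less RNA per cell cannot be told apart. Neutrophil maturation markers summed to no more than 4.99 TPM in any mutant library and 2.93 in a full-length library. Eosinophil markers summed to 2.52 to 17.9 TPM in the mutants, 5.05 and 4.31 with full-length ASXL2, and 5.25 and 3.27 with the empty vector. Among them Prg2 ran from 0 to 9.56 TPM in the mutants and reached at most 0.2354 in any other library. Ppbp of the megakaryocyte list ran from 0 to 7.19, with at most 0.3088 elsewhere. All 3 tested eosinophil genes were lower with the mutants by estimate, and none was called. The part of other cells in these levels was not tested. The mast cell and basophil list had no called gene among 26 and a median of -0.03.

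**Figure D5:**
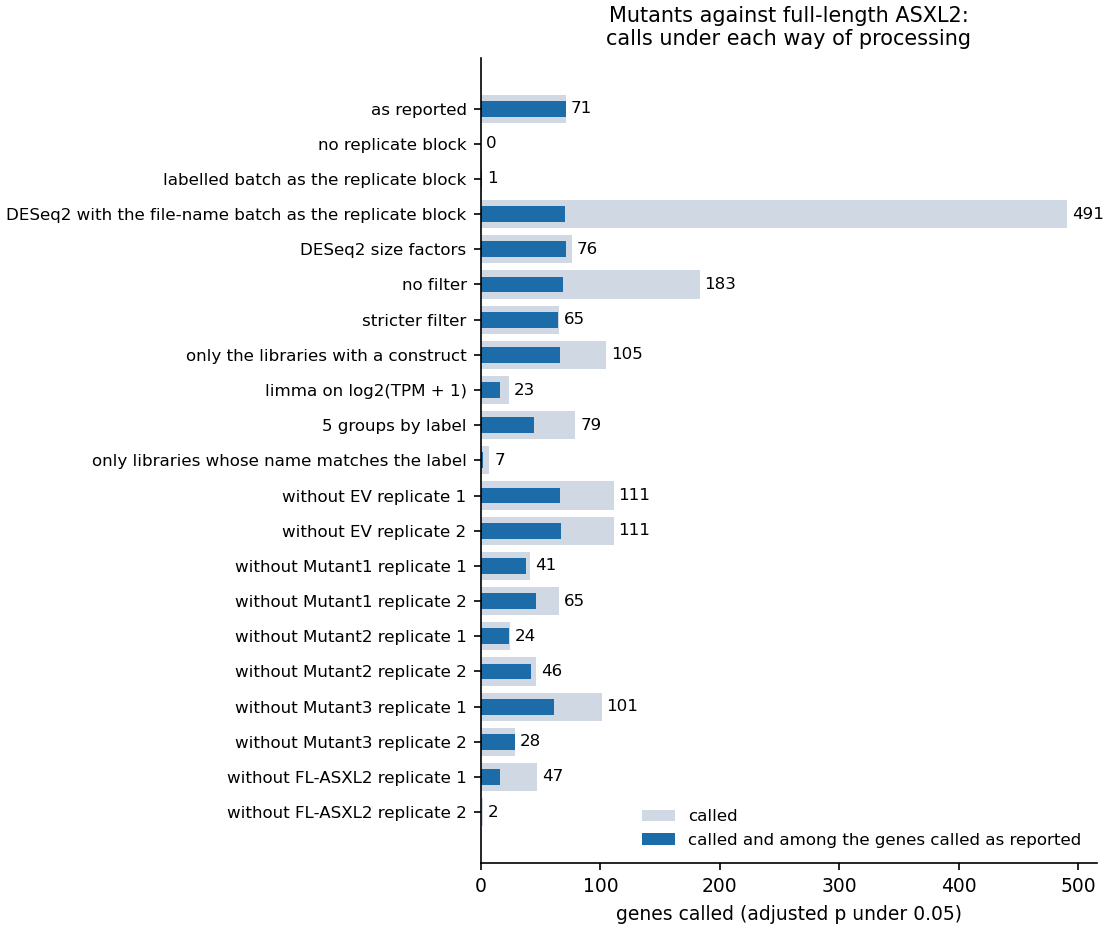
Number of genes called between mutants and full-length ASXL2 (pale bars, with the number) under each way of processing, and how many of those are among the 71 called as reported (dark bars). The count runs from 0 without the batch block to 491 with DESeq2, and is 2 without full-length replicate 2.

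The difference between mutants and full-length ASXL2 was itself compared between the batches. A class by batch term was called for 6 genes (1066 with an unadjusted p under 0.05), none of them among the 71. Of the 71, 5 had an unadjusted p under 0.05 for that term, with Endod1 at 0.0025 and Ube2e2 at 0.0034, and in both of these the direction was the same in the 2 batches. The block itself decided the calls: without any batch term edgeR called 0 genes (720 with an unadjusted p under 0.05), and with the labelled batch, which differs for 2 mutant libraries, it called 1. With DESeq2 and the same block 491 genes passed, including 70 of the 71.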

How the data were processed

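PolyA RNA of 10 libraries was quantified by the authors. Kallisto and DESeq2 and the build mm10 are named in the submitters' processing notes, without versions. Each deposited table gives estimated counts and TPM per transcript, per the file headers. Transcripts were joined to GENCODE M21 genes (99.2% matched, carrying 99.3% to 99.6% of counts), and the deposited estimated counts were summed per gene and rounded. Deposited TPM values were summed per gene for marker levels.

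EdgeR 4.0.16 (R 4.3.3) was fitted to all 10 libraries with TMM scaling, filterByExpr (minimum count 10), 3 classes (empty vector, full-length, mutants pooled) and the batch of the table names as a block, leaving 6 residual degrees of freedom. Calls are at an adjusted p under 0.05. Standard errors are the absolute log2 fold change divided by the square root of the test's F statistic. Values within a batch are log2(CPM + 0.5) differences. The procedure was tested on simulated data. Replicate numbers in the labels were not used as pairs: deviations of same-numbered libraries correlated from -0.14 to 0.58.

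Named genes were the 15 largest called rises and falls at 5 CPM or more in the higher class, excluding predicted genes, the 3 of smallest p in each order, up to 3 called members of each list, and Asxl1, Asxl2, Asxl3 and Bap1. Members and lists were chosen with earlier results of these data known. Alternatives used DESeq2 1.42.0, limma 3.58.1 on log2(TPM + 1), other filters, blocks, groupings and left-out libraries. Figures were drawn with matplotlib 3.10.9.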

Additional observations from a re-analysis of the deposited data

Results flagged for a closer look

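For 6 genes the difference between mutants and full-length ASXL2 itself differed between the batches (class by batch term, edgeR, adjusted p under 0.05), given as batch 2 minus batch 1 on the log2 scale. Lrrc27 differed by -4.32: full-length replicate 2 had 31.0 CPM and the other 9 libraries 0.950 to 1.54. Mcpt2, a mast cell protease, differed by -2.38, with 45.3 CPM in full-length replicate 2, 37.2 in EV replicate 2 and 2.37 to 7.4 in the mutants. Cth, which makes cysteine from cystathionine, differed by 1.57, with 50.1 and 37.8 CPM in full-length replicates 1 and 2. Lars2, the mitochondrial leucyl-tRNA synthetase, differed by 1.96, with 2732 and 1153 CPM there. AA474408 differed by 2.00, with 1332 and 495 CPM, and Tmem233 by 1.36, with 47.1 and 24.9 CPM. With 1 full-length library in each batch, batch and library cannot be told apart in these 6 values.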

How the results depend on the processing

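Counts are given as higher and lower in the mutants, then by order (empty vector, full-length, mutants in the middle), beside 33 and 38, then 30, 22 and 19 as reported. With no replicate block they were 0 and 0, then 0, 0 and 0. The labelled batch as the replicate block gave 1 and 0, then 0, 1 and 0. DESeq2 with the replicate block of the table names gave 223 and 268, then 216, 144 and 131. No filter gave 78 and 105, then 70, 56 and 57. Limma on log2(TPM + 1) gave 11 and 12, then 11, 8 and 4. Libraries whose name matches the label gave 1 and 6, then 4, 1 and 2. The libraries with a construct alone gave 58 lower. Leaving out 1 library gave 0 to 49 higher and 2 to 64 lower, then 0 to 55, 0 to 31 and 2 to 45. The libraries whose removal moved a count by over 1.5 times were Mutant1 replicate 1, both Mutant2, both Mutant3, both EV and both full-length libraries. The cause was not tested.

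Full-length ASXL2 against the empty vector gave 134 calls without the replicate block, 129 with the labelled batch, 1523 with DESeq2, 259 with limma and 446 with name-matched libraries, against 903, and 285 to 1047 with 1 library left out. Mutants against the empty vector gave 311, 335, 707 and 567 (no block, labelled batch, limma, name-matched) against 1925, and 494 to 2042 with 1 library left out. The batch term was called for 53 genes with no filter, against 6.

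Asxl2, not called, was at -0.01 and changed sign to 0.0158 with no replicate block and 0.0227 with the labelled batch; without 1 library it ran from -0.1268 to 0.0439, above 0 without Mutant2 replicate 1 (0.0395), Mutant3 replicate 2 or full-length replicate 2 (0.0384). All 71 genes kept their sign in each alternative that tested them. Of them, 66 passed the stricter filter and 70 that of the name-matched libraries. How far depth limits these counts was not tested, and full-length ASXL2 had 2 libraries.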
